A study of Mus musculus with 4 samples.

Results

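The 9 genes described here encode the glucocorticoid receptor (Nr3c1), its close relative the mineralocorticoid receptor (Nr3c2), the enzyme that regenerates active glucocorticoid inside cells (Hsd11b1), 3 proteins of the receptor's chaperone complex (Fkbp4, Ptges3 and Hsp90ab1) and 3 coregulators (Ncor1, Ncoa1 and Ncoa2). They were taken by gene symbol from the 32285 genes of 4 single-cell RNA libraries, and all 9 symbols were found in each library. The libraries came from 20-week-old C57BL/6J male mice that received prednisolone, a synthetic glucocorticoid (GC), or placebo (control). The fracture callus, the repair tissue that bridges a broken bone, gave 1 control and 1 GC library, and trabecular bone gave another control and another GC library. Collection was at week 2 throughout. By the labels every GC sample came from a slow-release prednisolone pellet of 6.25 mg/kg/d under the skin, whereas the study's text describes daily injection for its fracture model, and the number of mice behind a library is not given in the sources used here. Each group is 1 library, so no p-value, standard error or test across animals exists, and every difference between GC and control below compares 2 libraries rather than 2 treatments.

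Glucocorticoids cross the cell membrane and bind a receptor that waits in the cytoplasm, folded into a ligand-ready shape by heat shock protein 90 and its cochaperones. The bound receptor moves to the nucleus, binds DNA, recruits coactivators or corepressors and changes transcription of its target genes. Whether a cell meets active or inactive hormone is set before the receptor, by the 11-beta-hydroxysteroid dehydrogenases: type 1 makes the active steroid and type 2 inactivates it. Glucocorticoids in bone are known for lowering osteoblast function and for prolonging neutrophil survival while killing immature lymphocytes.

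After the cells were separated from empty droplets, 6705 control and 6890 GC cells of the callus and 3803 control and 4602 GC cells of trabecular bone were kept, of 41239842 to 95852254 UMIs listed per library, with median depths between 3268.5 and 6315 UMIs (unique molecules counted) per cell. Where an order of classes is given, neighbors are said to overlap when the ranges spanned by their control and GC levels overlap. Levels are given in CPM, the count of a gene scaled to a fixed total of UMIs and summed over all cells of a class in a library. Their intervals, and those of ratios, are exact 95% Poisson intervals that cover counting error only. Any 2 libraries shared 6 to 10 cell barcodes. Classes were named from marker genes and carry the ending "-like", since they were rebuilt from the counts and are not the study's own annotation. Clusters that could not be named held 3.997% of the control and 13.1% of the GC callus cells, and 0.736% and 0.587% of the trabecular cells. Of 66 callus and 60 trabecular clusters, 18 and 18 took 90% or more of their cells from 1 library, so a class can hold different cells in control and GC. Some classes were filled by different clusters in the 2 libraries: most callus mature neutrophil-like cells were in cluster 3 in control (1058 of 1663) and in cluster 0 in GC (1151 of 1330), most callus stromal or skeletal progenitor-like cells in cluster 8 in control (101 of 134) and in cluster 31 in GC (389 of 550), and the largest trabecular mature neutrophil-like clusters were cluster 3 in control (810 of 1629) and cluster 1 in GC (859 of 2267). Among callus chondrocyte-like cells cluster 4 was the largest for control, with 239 of 1505, and cluster 2 for GC, with 413 of 1018. The callus granulocyte-monocyte progenitor or promyelocyte-like class was mostly cluster 19 (28 of 44 control and 27 of 48 GC cells). That cluster was led by the mast cell or basophil genes Cpa3 and Mcpt8 as well as Mpo. Of the members only Hsd11b1, Ptges3 and Hsp90ab1 were split by cluster in this class. The trabecular libraries held few transcripts of bone-forming, bone-resorbing and cartilage cells. In control and GC Dmp1 was at 0 in both, Sp7 at 0.0884 and 0.0802 CPM, Acan at 0.177 and 0 CPM and Ctsk at 1.24 and 0.721 CPM. Bglap, of bone-forming cells, was higher than these in control, at 8.84 and 0.240 CPM against 56.6 and 39.4 CPM in the callus. Acp5, of bone-resorbing cells, was at 15.1 and 19.1 CPM against 93.6 and 143 CPM in the callus. Ptprc, the common leukocyte antigen, stood at 430.3 and 382 CPM in trabecular bone against 83.0 and 115 CPM in the callus. All named trabecular cells but 16 control and 42 GC stromal or skeletal progenitor-like cells were of blood-forming or immune classes. A lower summed level of a gene over all cells of a library can mean fewer cells of a type or less RNA per cell, and the all-cell values alone cannot tell these apart.

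Across all cells of a library, none of the members differed between GC and control by 1.5-fold, counted on CPM with 5 CPM added to both values for genes with at least 50 UMIs over both libraries. In the callus 0 of 9 members passed, with ratios of the CPM themselves between 0.774 and 1.42, where 3.28% of all 15117 genes measured passed. Nr3c2, at 0.699 and 0.861 CPM in control and GC, lay too far below the added 5 CPM to pass as lower in GC. Callus Hsd11b1 passed in 1 of 17 alternatives. In trabecular bone 0 of 8 passed, with ratios between 0.768 and 1.18, where 3.33% of all genes passed. Within cell classes the callus gave 97 pairs of member and class with enough counts, and 14 of them (14.4%) were past 1.5-fold, 3 higher and 11 lower in GC, against 15.3% of all pairs of gene and class (6.44% higher, 8.88% lower). Trabecular bone gave 70 pairs, of which 12 (17.1%) were past 1.5-fold, 6 higher and 6 lower, against 14.5% of all pairs (5.93% higher, 8.57% lower). Of the 6 lower pairs Ncoa1 in B cell-like cells had 0 UMIs in GC, at a depth that could not show a decrease, and without it 11 of 69 pairs were past 1.5-fold, 5 of them lower. Both shares lie near the background of all genes, so the members as a group did not stand apart. Of the 14 callus pairs all had an interval that left out 1, and 6 were in classes with under 50 cells in a library. Of the 12 trabecular pairs 7 had such an interval, 10 were in classes with under 50 cells, and 5 were in B cell-like cells, of which the GC library held 16. With at least 50 cells asked of each library, 8 of 81 callus pairs and 2 of 39 trabecular pairs remained past 1.5-fold. The share of all genes was not computed at that setting, so these counts cannot be set against the shares above.

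**Figure D1:**
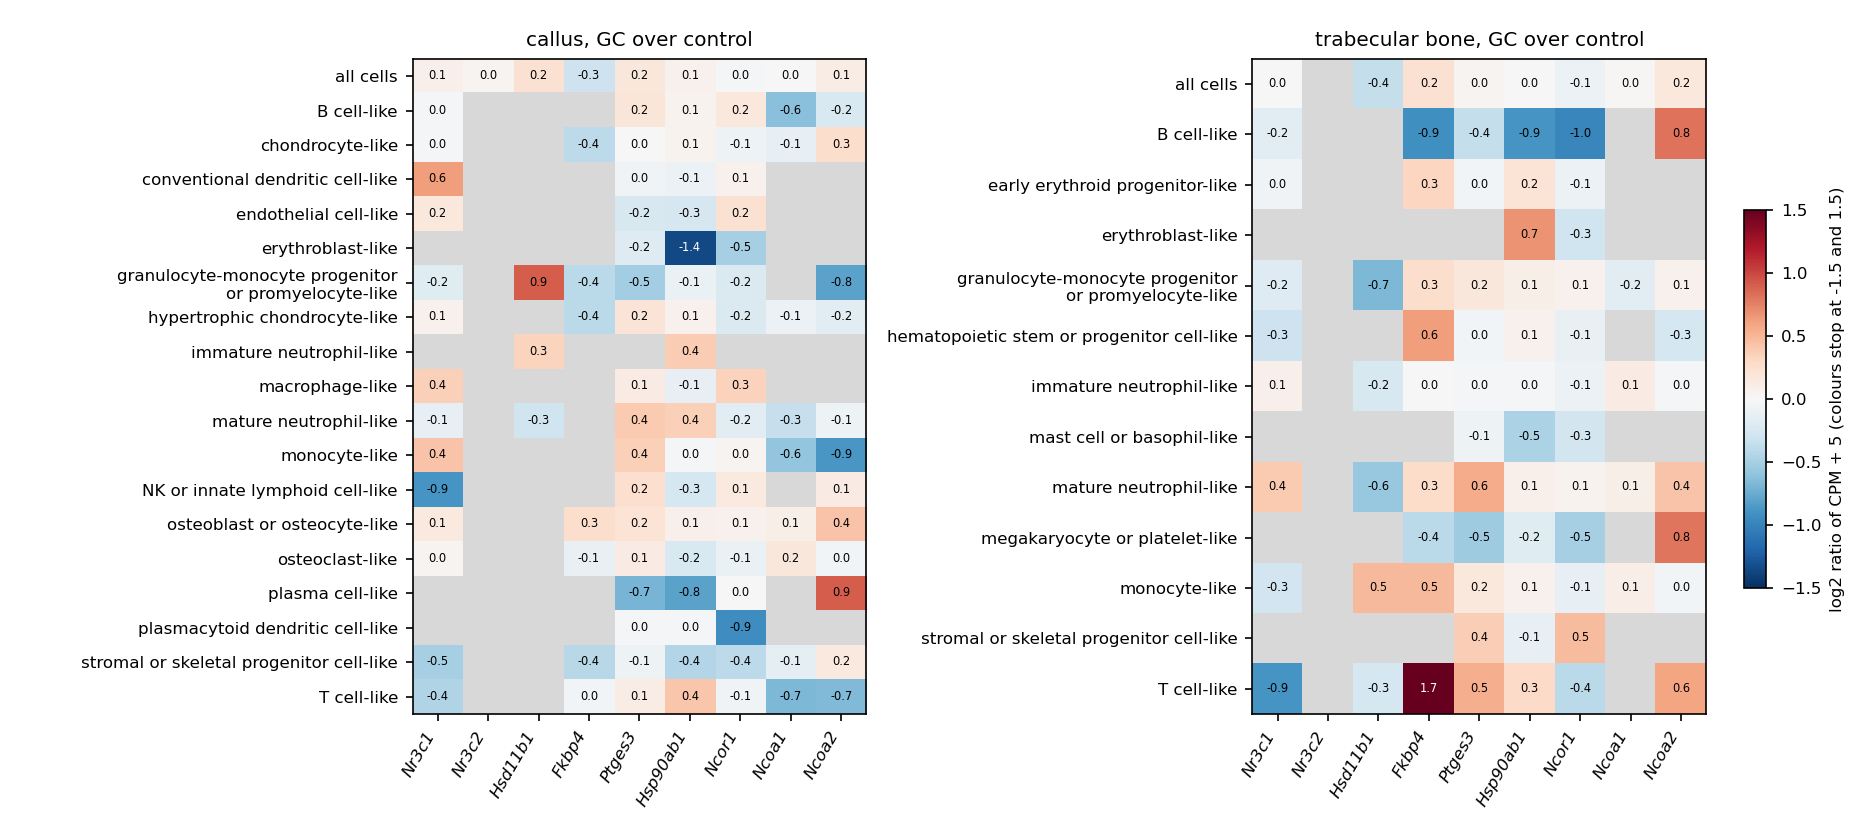
Log2 ratio of GC over control (CPM + 5) for each member (columns) in all cells and in each cell class (rows) of the callus (left) and trabecular bone (right), with the value printed in each cell and gray for pairs with under 50 UMIs or with 0 UMIs in a library. Values near 0 fill most of both panels, and the strongest colors are Fkbp4 in trabecular T cell-like cells (1.70) and Hsp90ab1 in callus erythroblast-like cells (-1.36).

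Genes that respond to handling during tissue digestion differed between the callus libraries and are given here because they accompany several results. Of 11 such genes (Fos, Jun, Egr1, Atf3, Hspa1a and others), all were measured over all callus cells and 2 were past 1.5-fold, both lower in GC: Ier3 with 698 and 167 CPM in control and GC, and Junb with 929 and 567 CPM. Their summed level was lower in the GC library in each of the 18 callus classes, ranging from 591 to 10583 CPM in control and from 226 to 6829 CPM in GC. Over all trabecular cells it was 3155 and 2867 CPM, with Hspa1a and Nr4a1 past 1.5-fold and lower in GC (8.43 and 3.39 CPM for the first and 198 and 125 CPM for the second). The part of these genes in the differences below was not tested.

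Nr3c1 (ENSMUSG00000024431; GRCm38 chr18:39410545-39519421, minus strand, protein coding) encodes the receptor itself. It was found in every one of the 18 callus classes and 12 trabecular classes that could be compared. In the callus its level over all cells was 83.8 CPM in control and 88.5 CPM in GC, a ratio of 1.06 (95% interval 1.02 to 1.10), and in trabecular bone it was 47.1 CPM in control and 47.5 CPM in GC, a ratio of 1.01 (95% interval 0.942 to 1.08). With each callus cell thinned to 1000 UMIs the callus log2 ratio went from 0.07 to -0.07. Free RNA in empty droplets of the callus control library held 45.3 CPM of Nr3c1, and that of the trabecular control and GC libraries held 25.8 and 21.6 CPM. No empty droplets were listed for the callus GC library, so its background is unknown.

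**Figure D2:**
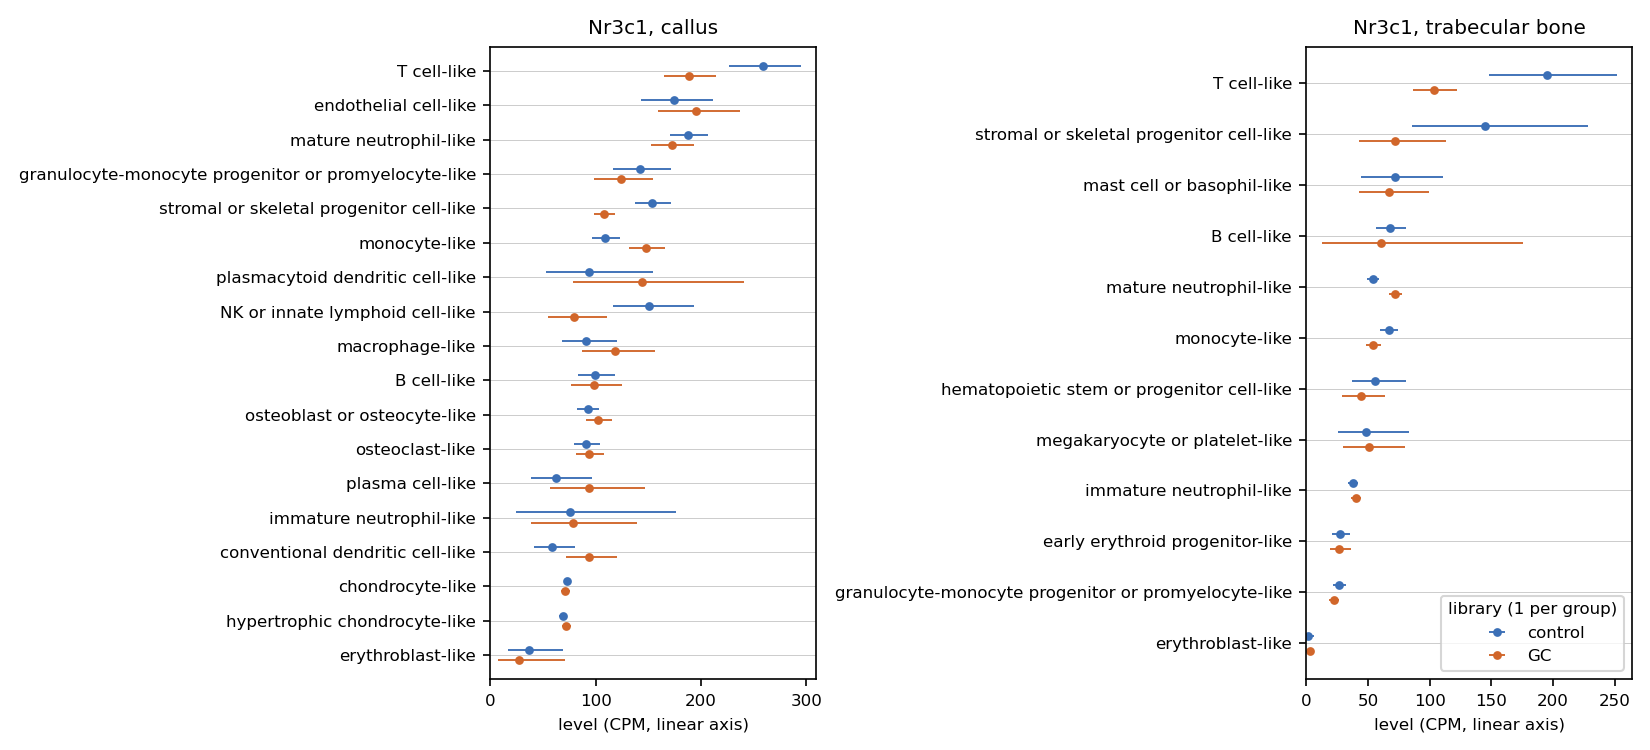
Nr3c1 level in CPM by cell class in the callus (left) and trabecular bone (right), with control and GC libraries as separate points and bars for exact 95% Poisson intervals. T cell-like cells are at the top and erythroblast-like cells at the bottom of both tissues, at 259 and 188 CPM against 36.4 and 27.5 CPM in the callus.

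T cell-like cells had the highest callus Nr3c1 level, 259 CPM in control and 188 CPM in GC, followed by endothelial cell-like cells at 175 and 195 CPM in control and GC and mature neutrophil-like cells at 188 and 172 CPM. The values of these 3 neighbors overlapped between libraries. All 3 stood above the next class, granulocyte-monocyte progenitor or promyelocyte-like cells at 142 and 124 CPM, which itself overlapped with stromal or skeletal progenitor-like cells at 154 and 108 CPM and monocyte-like cells at 109 and 148 CPM. Bone cells were in the middle of the order: osteoblast or osteocyte-like cells, which build and maintain bone, had 92.2 and 102 CPM, and osteoclast-like cells, which resorb it, had 90.96 and 93.6 CPM. Chondrocyte-like cells had 72.5 and 70.9 CPM and hypertrophic chondrocyte-like cells 68.8 and 72.2 CPM, and these 2 overlapped. Erythroblast-like cells were lowest, at 36.4 and 27.5 CPM, below every other class in both libraries and, in control, not above the empty droplets.

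Pooled blood and immune (hematopoietic) classes carried more Nr3c1 than the pooled cartilage, bone and stromal (osteolineage) classes of the same library. Osteoclast-like cells, which arise from blood-forming cells, were counted with the hematopoietic classes and endothelial cell-like cells with neither. Most osteolineage cells were cartilage cells, 1505 chondrocyte-like and 873 hypertrophic chondrocyte-like in control and 1018 and 866 in GC. Single classes did not all keep the pooled order. Stromal or skeletal progenitor-like cells had 154 CPM in control and 108 CPM in GC. Osteoblast or osteocyte-like cells had 92.2 and 102 CPM, above plasma cell-like cells at 62.5 and 93.7 CPM. In the control callus 3719 hematopoietic cells had 128 CPM and 2653 osteolineage cells had 74.9 CPM, a ratio of 1.70 (95% interval 1.61 to 1.80). In the GC callus 3298 hematopoietic cells had 129.6 CPM and 2590 osteolineage cells 77.6 CPM, a ratio of 1.67 (95% interval 1.57 to 1.78). The mean of the 2 log2 ratios was 0.72, and both libraries gave the same direction. It was 0.45 when callus control cells were called by a UMI cutoff alone, a setting that left the callus GC cells without a cutoff.

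Trabecular bone kept the same ends of the order with lower values. T cell-like cells had 195 CPM in control and 103 CPM in GC, stromal or skeletal progenitor-like cells 145 and 71.6 CPM from 18 and 18 UMIs, mast cell or basophil-like cells 71.9 and 66.7 CPM, B cell-like cells 67.7 and 60.2 CPM, mature neutrophil-like cells 53.8 and 72.0 CPM and monocyte-like cells 66.7 and 54.0 CPM, and each neighbor in this upper part overlapped with the next. Below megakaryocyte or platelet-like cells at 48.7 and 50.5 CPM came immature neutrophil-like cells at 37.7 and 39.9 CPM, early erythroid progenitor-like cells at 27.5 and 26.4 CPM, granulocyte-monocyte progenitor or promyelocyte-like cells at 26.2 and 22.2 CPM and erythroblast-like cells at 1.60 and 2.87 CPM. None of these overlapped with its neighbor, although early erythroid progenitor-like and promyelocyte-like cells were closer than the counting error of either. Mature neutrophil-like cells thus stood above immature ones, and these above promyelocyte-like cells, in both libraries. The promyelocyte-like values were close to those of the empty droplets, 25.8 and 21.6 CPM from 12 and 11 UMIs. Hematopoietic stem or progenitor cell-like cells, at 55.7 and 43.9 CPM, overlapped with monocyte-like and with megakaryocyte or platelet-like cells. When every cell was thinned to 1000 UMIs, 10 of 46 control T cell-like cells (21.7%, exact binomial interval 10.9% to 36.4%) and 20 of 166 GC T cell-like cells (12.05%, 7.52% to 18.0%) held a Nr3c1 UMI. Of erythroblast-like cells 0 of 195 in control (upper bound 1.87%) and 0 of 464 in GC (upper bound 0.792%) did, at similar median depths before thinning (6010 and 6506.5 UMIs in T cell-like cells, 5949 and 5946 in erythroblast-like cells). Without thinning the shares were 60.4% and 48.2% in T cell-like cells and 0.985% and 1.49% in erythroblast-like cells.

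Between GC and control, Nr3c1 was past 1.5-fold in 2 of 14 callus classes and 1 of 8 trabecular classes. Callus NK or innate lymphoid cell-like cells (130 control and 160 GC cells) had 151 CPM in control and 79.1 CPM in GC, from 63 and 34 UMIs, a ratio of 0.524 (95% interval 0.335 to 0.808) where 18.0% of all genes measured in that class were past 1.5-fold. Their handling genes summed to 1940.4 and 940.4 CPM in control and GC, and the part of that difference was not tested. Callus conventional dendritic cell-like cells went the other way, 58.7 CPM in control and 93.6 CPM in GC, a ratio of 1.60 (95% interval 1.05 to 2.45) with 20.7% of genes past 1.5-fold and handling genes at 2629 and 1311 CPM. It was past 1.5-fold in 12 of 15 alternatives.

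In trabecular T cell-like cells (48 control and 166 GC cells) Nr3c1 was 195 CPM in control and 103 CPM in GC, from 59 and 135 UMIs, a ratio of 0.529 (95% interval 0.387 to 0.731) with 23.4% of all genes past 1.5-fold. The class was a mixture of 4 clusters whose makeup differed between libraries. In cluster 12 (21 control and 55 GC cells) Nr3c1 was 131 and 149.98 CPM, a ratio of 1.15 (0.682 to 2.00), and in cluster 45 (20 and 36 cells) it was 340.2 and 132 CPM, a ratio of 0.389 (0.248 to 0.618). Clusters 46 and 47 held 3 and 4 control cells against 42 and 33 GC cells and stood at 55.0 and 41.8 CPM in GC. Beside the lower class level there were thus a lower level within cluster 45 and more GC cells in clusters 46 and 47. The control level of clusters 46 and 47 rests on 0 and 3 UMIs, and the part of either difference was not tested. In cluster 45 the proliferation genes Mki67 and Top2a also differed, at 9.45 and 28.4 CPM in control and 400.3 and 442 CPM in GC, and their part was not tested. Handling genes in the whole class summed to 6471 and 4113 CPM.

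Smaller Nr3c1 differences, under 1.5-fold but with intervals that left out 1, ran in both directions. Callus T cell-like cells had a ratio of 0.727 (95% interval 0.603 to 0.876) and stromal or skeletal progenitor-like cells 0.701 (95% interval 0.606 to 0.812), whereas callus monocyte-like cells had 1.36 (95% interval 1.14 to 1.61). In the stromal class the ratio was nearer 1 within clusters that both libraries filled: cluster 8 (101 control and 65 GC cells) had 165 and 162 CPM, a ratio of 0.982 (0.785 to 1.22), and cluster 46 (31 and 96 cells) had 129 and 106 CPM, a ratio of 0.822 (0.609 to 1.12). Cluster 31, with 2 control and 389 GC cells and led by Adamts1, Serpinh1 and Bmp2, stood at 89.5 CPM in GC. For monocyte-like cells cluster 6, which held nearly the whole class, gave 106 and 144 CPM. Trabecular monocyte-like cells had a ratio of 0.809 (95% interval 0.688 to 0.952), and their clusters ran in both directions. Clusters 40, 39 and 8 had ratios of 0.514 (0.341 to 0.768), 0.666 (0.447 to 0.981) and 0.834 (0.627 to 1.11). Clusters 41 and 10 had 1.03 (0.675 to 1.58) and 1.43 (0.845 to 2.49). Trabecular mature neutrophil-like cells had a ratio of 1.34 (95% interval 1.19 to 1.51), over different leading clusters. The median gene of that class was itself higher in GC by 0.25 on the log2 scale. Osteoblast or osteocyte-like, osteoclast-like, chondrocyte-like, hypertrophic chondrocyte-like, endothelial cell-like and B cell-like cells of the callus had ratios between 0.978 and 1.12, each with an interval that held 1.

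The 5 genes whose level pattern across the 18 callus classes was most like that of Nr3c1, among 12416 genes with at least 200 UMIs, were Nck1 (Pearson r = 0.81), Smim15 (0.81), Spin1 (0.80), Tpp2 (0.78) and Znrf1 (0.78). The points share their libraries and differ in depth, and the coefficients are given as a description.

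Nr3c2 (GRCm38 chr8:76899442-77245012, plus strand, protein coding), the mineralocorticoid receptor, binds glucocorticoids as well as aldosterone. It was scarcely detected. The callus held 56 UMIs in the control and 47 in the GC library, or 0.699 and 0.861 CPM, and trabecular bone held 4 and 4 UMIs. In 9 of the 18 callus classes and 5 of the 12 trabecular classes both libraries were at 0. In callus monocyte-like cells, for example, 0 UMIs were found where 3 UMIs would have been 1.26 CPM in control and 1.57 CPM in GC. Of the callus counts, 21 control and 19 GC UMIs were in hypertrophic chondrocyte-like cells (1.09 and 1.21 CPM) and 19 and 11 in chondrocyte-like cells (0.458 and 0.674 CPM). Empty droplets of the callus control library held 2.11 CPM from 2 UMIs, too few to place the cartilage levels above or below free RNA. No class reached 50 UMIs, and no difference between GC and control could be read.

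Hsd11b1 (GRCm38 chr1:193221634-193264075, minus strand, protein coding) encodes the type 1 enzyme, which converts inactive 11-keto steroids, prednisone among them, into active ones. Its transcripts were concentrated in the neutrophil lineage of both tissues and near absent from cartilage and bone cells. The sequence before its RefSeq start is shown because the level differed so widely between classes. It covers bases 190 to 41 before the start in the RefSeq annotation of GRCm38.p6 (chr1:193242401-193242550, minus strand, 5′ to 3′), and this start lies inside the longer gene span given above. Capitals mark letters that match, on either strand, a heat shock element (GAANNTTC), a glucocorticoid response element (ACANNNTGT), a C/EBP motif (TTGCNNAA), a CCAAT box (CCAAT) or a GC box (GGGCGG).
Hsd11b1: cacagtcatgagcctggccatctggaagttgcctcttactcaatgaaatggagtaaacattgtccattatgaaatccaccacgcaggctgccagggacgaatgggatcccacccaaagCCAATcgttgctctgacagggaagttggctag
A CCAAT box 72 to 68 bases before the start was the only match in the whole window of 250 bases. Of 32851 RefSeq windows of that length, 33.8% held these 5 letters, 5.84% held the glucocorticoid response element letters and 9.56% the C/EBP letters. A match is a description of the letters and no evidence that a factor binds there.

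**Figure D3:**
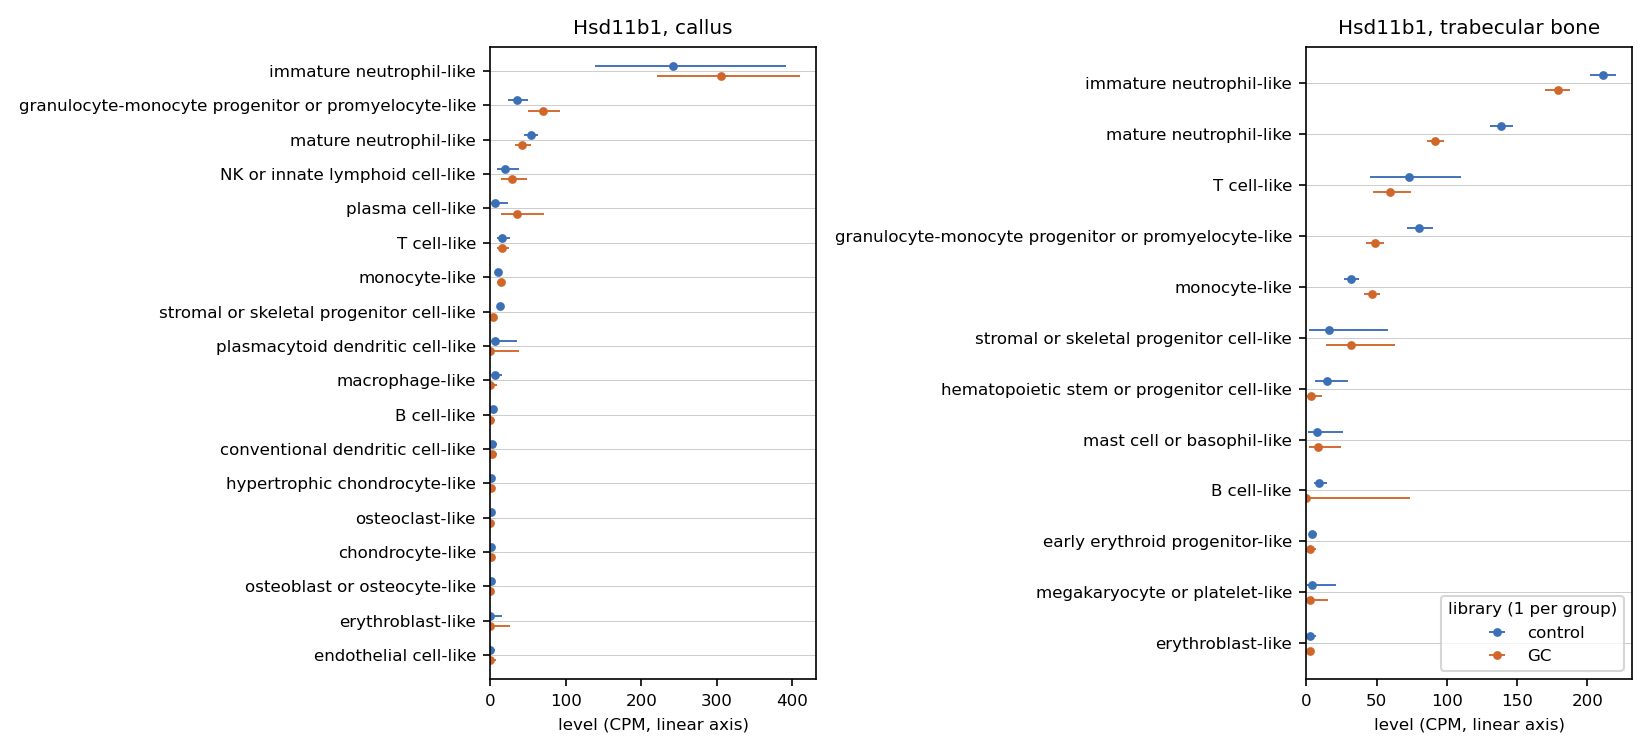
Hsd11b1 level in CPM by cell class in the callus (left) and trabecular bone (right), with control and GC libraries as separate points and bars for exact 95% Poisson intervals. Immature neutrophil-like cells are at the top of both tissues, and the chondrocyte-like, osteoblast or osteocyte-like and osteoclast-like classes lie near 0.

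Immature neutrophil-like cells had the highest callus level, 241 CPM in control and 305 CPM in GC, from 16 and 43 UMIs in 16 and 44 cells. Below them and overlapping with each other were granulocyte-monocyte progenitor or promyelocyte-like cells at 34.5 and 69.1 CPM and mature neutrophil-like cells at 53.2 and 42.3 CPM. NK or innate lymphoid cell-like cells had 19.2 and 27.9 CPM, T cell-like cells 15.7 and 15.5 CPM and monocyte-like cells 9.68 and 13.6 CPM. In the GC library 0 UMIs were found in osteoblast or osteocyte-like cells and in osteoclast-like cells, and control held 1 UMI in each. Endothelial cell-like and erythroblast-like cells had 0 UMIs in both libraries. Chondrocyte-like cells, the class with the most UMIs in all, held 13 and 1 UMIs (0.314 and 0.0612 CPM), and hypertrophic chondrocyte-like cells 7 and 3. Empty droplets of the callus control library held 5.27 CPM, so the levels in cartilage and bone classes lay below free RNA.

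Osteolineage classes together had 0.711 CPM in control against 18.1 CPM in hematopoietic classes, a ratio of 0.0393 (95% interval 0.0280 to 0.0540). In GC the values were 0.487 and 21.7 CPM, a ratio of 0.0225 (0.0133 to 0.0359). The mean log2 ratio with 5 CPM added was -2.15, with -2.02 in control and -2.28 in GC. Within the osteolineage most of the UMIs came from stromal or skeletal progenitor-like cells, which held 26 of 47 in control and 15 of 19 in GC. In that class cluster 8 had 16.9 and 11.7 CPM, from 25 and 9 UMIs, and the GC cells of cluster 31 had 1.84 CPM.

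Trabecular bone also had its highest levels in immature neutrophil-like cells, at far greater counts. Immature neutrophil-like cells had 211 CPM in control and 179 CPM in GC, from 2005 and 1621 UMIs, mature neutrophil-like cells had 139 and 91.5 CPM, from 1152 and 902 UMIs, and the 2 classes did not overlap. T cell-like cells had 72.7 and 59.5 CPM, promyelocyte-like cells 80.3 and 48.5 CPM and monocyte-like cells 31.8 and 46.3 CPM, and the first 2 of these overlapped. Erythroblast-like cells had the lowest mean of both libraries, at 2.40 and 2.52 CPM, and B cell-like cells had 17 UMIs in control (8.99 CPM) and 0 in GC, where 3 UMIs would have been 60.2 CPM. Free RNA of Hsd11b1 was higher here than in the callus: empty droplets held 116 CPM in control and 29.5 CPM in GC, so levels of the T cell-like, promyelocyte-like and monocyte-like classes lay below free RNA in control and above it in GC. After thinning to 1000 UMIs, 149 of 857 control (17.4%, interval 14.9% to 20.1%) and 125 of 848 GC immature neutrophil-like cells (14.7%, 12.4% to 17.3%) held a Hsd11b1 UMI, against 0 of 195 and 0 of 464 erythroblast-like cells, whose upper bounds were 1.87% and 0.792%. The median depths of the immature neutrophil-like cells were 9548.5 and 8953 UMIs, and the unthinned shares were 79.1% and 72.2%, with 0.985% and 1.27% in erythroblast-like cells.

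Within the promyelocyte-like class Hsd11b1 was highest in the clusters with the most transcripts of Ngp, a secondary granule gene of maturing neutrophils. In trabecular bone cluster 42, with 25562 and 22524 CPM of Ngp, had 173 and 141 CPM of Hsd11b1, cluster 44, with 9762 and 9366 CPM of Ngp, had 141 and 81.1 CPM, and cluster 17, with 301 and 111 CPM of Ngp, had 7.68 and 3.45 CPM. In the callus cluster 61, led by Elane, Prtn3, Camp and Ngp, had 94.2 and 152 CPM, whereas cluster 19, led by Cpa3 and Mcpt8 as well as Mpo, had 3 UMIs in control and 0 in GC. The genes whose pattern across the 18 callus classes was most like that of Hsd11b1 were Acpp (Pearson r = 0.92), Pglyrp1 (0.91), Krt83 (0.90), Gca (0.87) and Ltf (0.87), and of these Pglyrp1 and Ltf encode granule proteins of neutrophils. The same description as for Nr3c1 applies to these coefficients.

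Over all cells GC and control differed for Hsd11b1 in opposite directions in the 2 tissues, and the difference between tissues was not tested. In the callus it was 3.53 CPM in control and 5.02 CPM in GC, a ratio of 1.42 (95% interval 1.20 to 1.68). In trabecular bone it was 109.7 CPM in control and 84.3 CPM in GC, a ratio of 0.768 (95% interval 0.732 to 0.806). With each callus cell thinned to 1000 UMIs the callus value turned, from a log2 ratio of 0.23 to -0.03. Callus mature neutrophil-like cells, the class with the most Hsd11b1 UMIs (123 in control and 70 in GC), were lower in GC. They had 53.2 and 42.3 CPM, a ratio of 0.795 with an interval that held 1. Callus promyelocyte-like cells (44 control and 48 GC cells) were past 1.5-fold, with 34.5 CPM in control and 69.1 CPM in GC from 27 and 45 UMIs, a ratio of 2.00 (95% interval 1.21 to 3.35), in a class where 22.5% of genes were past 1.5-fold. Within cluster 61, which held all but 3 of these UMIs, the ratio was 1.61 with an interval of 0.960 to 2.76, and handling genes in the class summed to 1445 and 373 CPM.

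Trabecular promyelocyte-like cells (166 control and 210 GC cells) had 80.3 CPM in control and 48.5 CPM in GC, a ratio of 0.604 (95% interval 0.510 to 0.716), in a class where 2.20% of genes were past 1.5-fold. Clusters 42, 43, 44 and 11 held the most Hsd11b1 UMIs in each library. Cluster 42 had 173 and 141 CPM (0.814, 0.604 to 1.10). Cluster 11, with 35 control and 62 GC cells, had 51.1 and 46.6 CPM (0.913, 0.629 to 1.34). Both of these intervals held 1. Cluster 43 had 139 and 79.6 CPM (0.574, 0.371 to 0.871) and cluster 44 had 141 and 81.1 CPM (0.577, 0.392 to 0.839). The log2 ratio of the class was -0.67, and it was -0.20 with each library clustered alone and -0.37 with at least 500 genes asked of a cell. Mature neutrophil-like cells were lower in GC with a ratio of 0.660 (95% interval 0.604 to 0.721), under 1.5-fold after 5 CPM was added. Immature ones had a ratio of 0.846 (95% interval 0.792 to 0.904), and monocyte-like cells were higher in GC with 1.46 (95% interval 1.19 to 1.80). Empty droplets of the trabecular control and GC libraries held 116 and 29.5 CPM, from 54 and 15 UMIs, and the part of free RNA was not tested. With 10% of UMIs taken off as free RNA the log2 ratio over all trabecular cells went from -0.36 to -0.26 and that of promyelocyte-like cells from -0.67 to -0.55.

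Fkbp4 (GRCm38 chr6:128429735-128438677, minus strand), Ptges3 (chr10:128058954-128077272, plus strand) and Hsp90ab1 (chr17:45567775-45573271, minus strand), all protein coding, stand for the chaperone complex. Hsp90ab1 encodes the constitutive form of heat shock protein 90, Ptges3 the cochaperone p23, which stabilizes the closed complex, and Fkbp4 the immunophilin FKBP52, which links the receptor to transport toward the nucleus. Hsp90ab1 and Ptges3 have near-identical processed copies in the genome, so reads could be split among copies and their levels are uncertain to that extent. The windows before the starts of Fkbp4 and Ptges3 are shown because the 3 genes varied together across classes, with the same capitals and the same positions as for Hsd11b1 (GRCm38.p6, chr6:128438697-128438846 on the minus strand and chr10:128058792-128058941 on the plus strand).
Fkbp4: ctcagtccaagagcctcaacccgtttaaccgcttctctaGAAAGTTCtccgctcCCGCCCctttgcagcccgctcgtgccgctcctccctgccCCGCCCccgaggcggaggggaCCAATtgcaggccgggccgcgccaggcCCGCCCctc
Ptges3: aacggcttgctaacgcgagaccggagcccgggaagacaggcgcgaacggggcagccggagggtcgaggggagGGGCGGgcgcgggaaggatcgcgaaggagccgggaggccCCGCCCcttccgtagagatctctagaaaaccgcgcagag
The Fkbp4 window held heat shock element letters 151 to 144 bases before the start, a CCAAT box at 76 to 72 and 3 GC boxes. The Ptges3 window held 3 GC boxes, of which 2 fall in the printed stretch, and none of the other letters. Heat shock element letters occurred in 6.69% and a GC box in 32.7% of all windows. No window for Hsp90ab1, Nr3c1 or Ncoa2 was used.

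**Figure D4:**
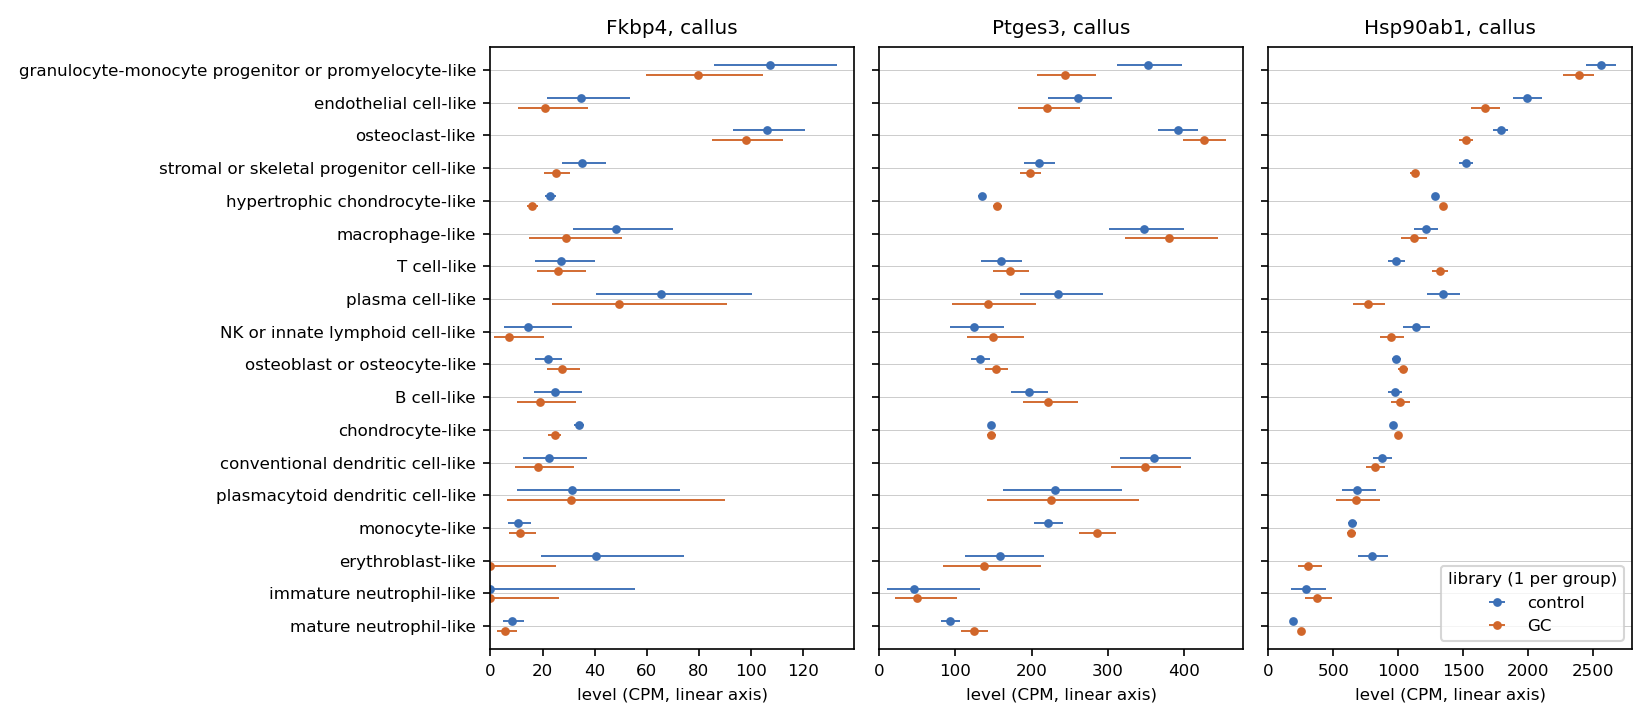
Fkbp4, Ptges3 and Hsp90ab1 levels in CPM by cell class in the callus, with control and GC libraries as separate points and bars for exact 95% Poisson intervals. Osteoclast-like cells are high and mature neutrophil-like cells low for all 3 genes, and most pairs of points lie close together.

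In the callus osteoclast-like cells stood high and mature neutrophil-like cells low for all 3 chaperones. Not every progenitor class was high: callus stromal or skeletal progenitor-like cells had 35.1 and 25.1 CPM of Fkbp4 in control and GC. Callus Hsp90ab1 was highest in granulocyte-monocyte progenitor or promyelocyte-like cells, 2563 CPM in control and 2391 CPM in GC, above endothelial cell-like cells at 1994 and 1673 CPM and osteoclast-like cells at 1790.4 and 1525 CPM, and lowest in mature neutrophil-like cells at 193 and 249 CPM. Within the promyelocyte-like class cluster 19, led by the mast cell or basophil genes Cpa3 and Mcpt8 as well as Mpo, had 2852 and 3154 CPM of Hsp90ab1, and cluster 61, led by Elane and Prtn3, had 1966 and 1479 CPM, below the endothelial cell-like values in each library. Callus Fkbp4 was highest in osteoclast-like cells at 106 and 98.0 CPM and promyelocyte-like cells at 107 and 79.8 CPM, which overlapped, and both stood above every other class. Within promyelocyte-like cells Fkbp4 was not split by cluster. It was 8.22 and 5.44 CPM in mature neutrophil-like cells. In immature neutrophil-like cells 0 UMIs were found, where 3 UMIs would have been 45.3 CPM in control and 21.3 CPM in GC. Callus Ptges3 was highest in osteoclast-like cells at 392 and 426 CPM, above macrophage-like cells at 348 and 380.4 CPM, and lowest in immature and mature neutrophil-like cells at 45.3 and 49.6 CPM and 92.97 and 124 CPM. Empty droplets of the callus control library held 34.8 CPM of Fkbp4, 109 CPM of Ptges3 and 761 CPM of Hsp90ab1. The neutrophil values of both libraries lay below these control droplets, except Ptges3 in GC mature neutrophil-like cells (124 CPM). For Fkbp4 in control immature neutrophil-like cells this could not be read, since the upper bound was 55.7 CPM. Fkbp4 in hypertrophic chondrocyte-like cells was below the control droplets too, at 22.9 and 16.1 CPM in control and GC. In control chondrocyte-like cells Fkbp4 was 34.0 CPM, close to the droplet level, which rests on 33 UMIs.

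In trabecular bone hematopoietic stem or progenitor cell-like cells led for Hsp90ab1, 3091 CPM in control and 3226 CPM in GC, and for Ptges3, 336 and 327 CPM, and did not overlap with the next class in either case. Fkbp4 was 136 and 213 CPM in them and 182 and 219 CPM in promyelocyte-like cells, and these overlapped. Hsp90ab1 and Fkbp4 were lower at each later stage of the neutrophil lineage. Hsp90ab1 was 2351 and 2494 CPM in promyelocyte-like, 247 and 243 CPM in immature and 194 and 205 CPM in mature neutrophil-like cells, and Fkbp4 was 11.1 and 11.1 CPM in immature and 3.85 and 5.68 CPM in mature ones. Ptges3 was 223 and 253 CPM in promyelocyte-like, 38.0 and 37.0 CPM in immature and 25.03 and 39.2 CPM in mature neutrophil-like cells, so the last stage was lower in control only. Empty droplets of the trabecular control and GC libraries held 389 and 727 CPM of Hsp90ab1, 40.8 and 58.9 CPM of Fkbp4 and 36.5 and 104 CPM of Ptges3. The immature and mature neutrophil-like values lay below these, except Ptges3 in control immature cells (38.0 CPM). The order of immature and mature cells thus rests on values at or below free RNA. In the erythroid lineage Ptges3 was 276 and 269.5 CPM in early erythroid progenitor-like and 1.60 and 5.03 CPM in erythroblast-like cells. Hsd11b1, by contrast, was higher in both neutrophil-like classes than in promyelocyte-like cells. Over the 18 callus classes the log levels correlated between Fkbp4 and Ptges3 (Pearson r = 0.76), Fkbp4 and Hsp90ab1 (0.79) and Ptges3 and Hsp90ab1 (0.63), whereas the coefficients of Nr3c1 with Fkbp4, Ptges3 and Hsp90ab1 were 0.14, 0.14 and 0.17. These are descriptions over classes that share libraries and differ in depth.

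Callus Fkbp4 was lower in GC in 6 of 7 classes with enough counts, in none by 1.5-fold. Over all cells it was 31.9 CPM in control and 24.7 CPM in GC, a ratio of 0.774 (95% interval 0.724 to 0.827). Chondrocyte-like cells had 34.0 and 24.6 CPM in control and GC, a ratio of 0.724 (95% interval 0.646 to 0.809), hypertrophic chondrocyte-like cells 22.9 and 16.1 CPM, a ratio of 0.700 (95% interval 0.598 to 0.819), and stromal or skeletal progenitor-like cells 35.1 and 25.1 CPM, a ratio of 0.714 (95% interval 0.523 to 0.978). In these 3 classes the interval left out 1, and the class that went the other way was osteoblast or osteocyte-like cells at 21.96 and 27.4 CPM. With each cell thinned to 1000 UMIs the log2 ratio over all cells went from -0.31 to 0.02. Handling genes, which include heat shock genes, summed to 4409 and 2367 CPM in chondrocyte-like and 8513 and 6546 CPM in hypertrophic chondrocyte-like cells.

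In trabecular bone Fkbp4 went the other way. Over all cells it was 57.2 CPM in control and 67.6 CPM in GC, a ratio of 1.18 (95% interval 1.11 to 1.25), and 7 of 9 classes had a ratio above 1. Hematopoietic stem or progenitor cell-like cells (25 control and 29 GC cells) had 136 and 213 CPM, a ratio of 1.56 (95% interval 1.16 to 2.13), past 1.5-fold where 10.8% of genes were, and past it in 8 of 15 alternatives. T cell-like cells had 16.5 and 64.9 CPM from 5 and 85 UMIs, a ratio of 3.93 (95% interval 1.62 to 12.4), and cluster 12, which had both libraries, gave 26.2 and 66.4 CPM with a ratio of 2.54 (0.883 to 9.97). In cluster 45 it was 9.45 and 71.8 CPM, beside the proliferation genes that differed there. Monocyte-like cells had 78.5 and 112 CPM with a ratio of 1.43 (95% interval 1.25 to 1.63), promyelocyte-like cells 1.21 (95% interval 1.10 to 1.33) and early erythroid progenitor-like cells 1.26 (95% interval 1.07 to 1.48). Free RNA of Fkbp4 was 40.8 CPM in control and 58.9 CPM in GC.

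Ptges3 and Hsp90ab1 were close to equal over all cells, with callus ratios of 1.13 (95% interval 1.10 to 1.16) and 1.04 (95% interval 1.03 to 1.06) and trabecular ratios of 1.03 (95% interval 0.983 to 1.07) and 1.01 (95% interval 0.991 to 1.02). Callus plasma cell-like cells (30 control and 20 GC cells) had lower Ptges3 in GC, 235 and 143 CPM with a ratio of 0.610 (95% interval 0.383 to 0.948), and lower Hsp90ab1, 1345 and 769 CPM with a ratio of 0.572 (95% interval 0.473 to 0.689), in a class where 35.4% of genes were past 1.5-fold and Vpreb3, a gene of developing B cells, also differed (488 and 98.6 CPM). With at least 500 genes asked of a cell the Hsp90ab1 log2 ratio turned from -0.80 to 0.30 and that of Ptges3 went from -0.69 to -0.07. Callus erythroblast-like cells (56 control and 65 GC cells) had 801 and 309 CPM of Hsp90ab1, a ratio of 0.386 (95% interval 0.273 to 0.536) with 35.5% of genes past 1.5-fold. Cluster 60 had 1105 and 417 CPM, a ratio of 0.377 (0.256 to 0.541), and cluster 23 had 129.8 and 152 CPM, a ratio of 1.17 (0.422 to 3.21). With at least 500 genes asked of a cell the log2 ratio of the class went from -1.36 to -0.22. Trabecular erythroblast-like cells (203 control and 471 GC cells) had 31.2 and 52.5 CPM, a ratio of 1.68 (95% interval 1.18 to 2.46) with 41.8% of genes past 1.5-fold, at levels below the 389 and 727 CPM of the empty droplets. With 10% of UMIs taken off as free RNA the log2 ratio went from 0.67 to 0.0. That is the value given when nothing is left in either library, so it shows no direction.

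Trabecular B cell-like cells held 5 of the 12 trabecular pairs past 1.5-fold, in a class where 62.6% of genes were and the median gene had a log2 ratio of -0.59. The GC library had 16 such cells, all in cluster 18, against 316 in control, of which 140 were in cluster 16 and 77 in cluster 21, a cluster with 726 CPM of Mki67. Handling genes in the class summed to 1750 CPM in control and 6296 CPM in GC, with 7 of 8 measured higher past 1.5-fold and 1 lower, and their part was not tested. Hsp90ab1 was 1934 and 1043 CPM in the whole class but 1236 and 1043 CPM within cluster 18 (ratio 0.844, 0.620 to 1.13). Fkbp4 was 118 and 60.2 CPM in the class and 61.9 and 60.2 CPM within cluster 18, and its log2 ratio in the class turned from -0.92 to 0.35 as a mean over cells. Ncor1 was 242 and 120.3 CPM and Ncoa2 55.0 and 100.3 CPM, with 6 and 5 UMIs in GC. Ncoa1 had 59 UMIs in control and 0 in GC, where 3 UMIs would have been 60.2 CPM, above the control level of 31.2 CPM, so no ratio is given.

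Ncor1 (GRCm38 chr11:62316426-62458541, minus strand), a corepressor, and Ncoa1 (chr12:4247362-4477182, minus strand) and Ncoa2 (chr1:13139105-13374083, minus strand), coactivators of the p160 family, are protein coding and act once the receptor is on DNA. Over all cells Ncoa2 differed most of the 3, with a ratio of 1.09 (95% interval 1.02 to 1.16) in the callus and 1.14 (95% interval 1.05 to 1.24) in trabecular bone, and the callus log2 ratio went from 0.11 to -0.25 with each cell thinned to 1000 UMIs. Ncor1 was 129 CPM in control and 126 CPM in GC in the callus and 208 and 195 CPM in trabecular bone, and Ncoa1 was 16.8 and 16.7 CPM and 31.3 and 31.8 CPM.

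**Figure D5:**
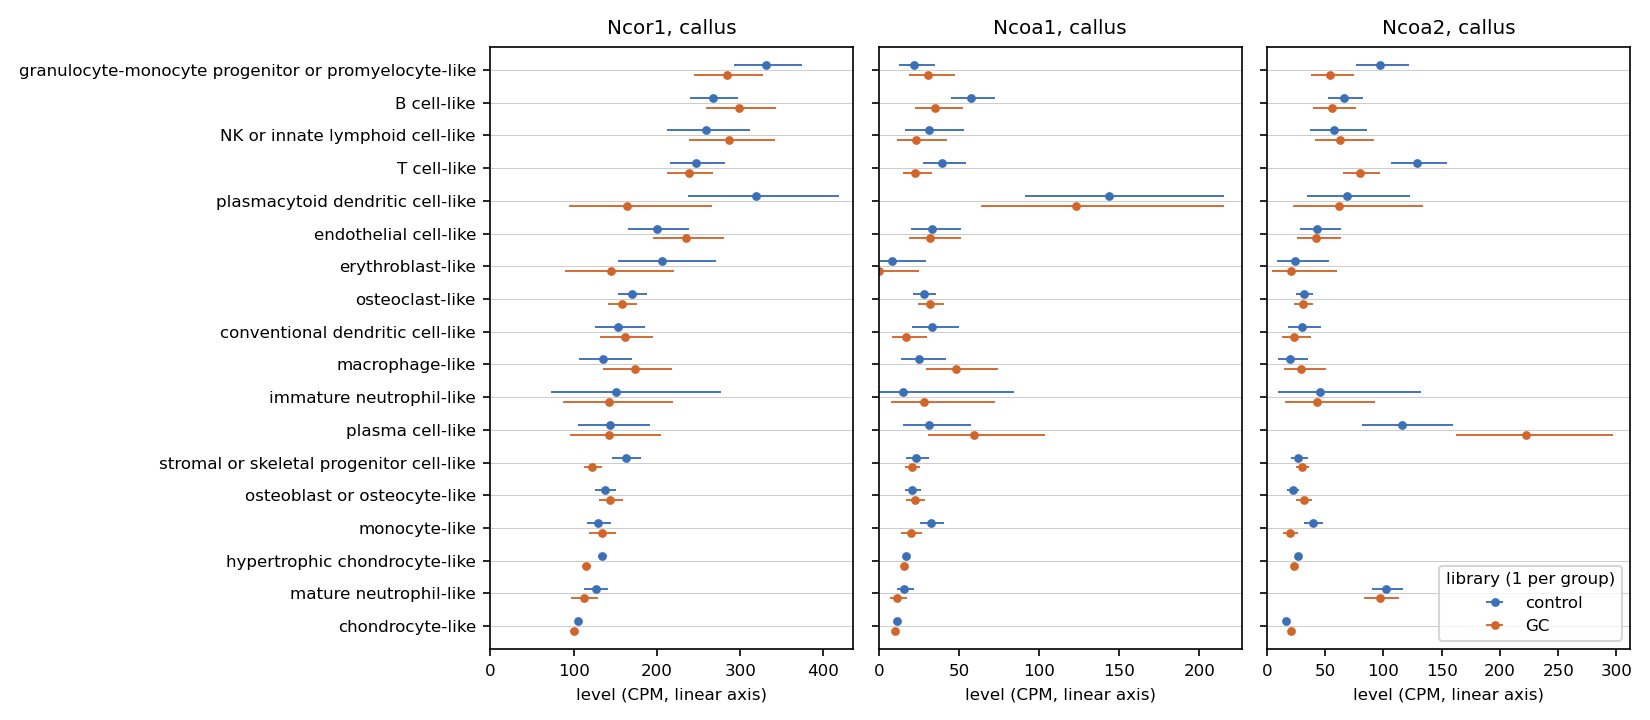
Ncor1, Ncoa1 and Ncoa2 levels in CPM by cell class in the callus, with control and GC libraries as separate points and bars for exact 95% Poisson intervals. Plasmacytoid dendritic cell-like cells are highest for callus Ncoa1, and callus chondrocyte-like cells are low for all 3 genes.

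Lymphoid classes stood high for callus Ncor1, with B cell-like cells at 268 and 299 CPM, NK or innate lymphoid cell-like cells at 259 and 286 CPM and T cell-like cells at 247 and 238 CPM, while promyelocyte-like cells had the highest mean at 331 and 284 CPM, overlapping with B cell-like cells. Chondrocyte-like cells were lowest at 106 and 100.3 CPM. Callus Ncoa1 was highest in plasmacytoid dendritic cell-like cells, 144 and 123 CPM from 23 and 12 UMIs, above B cell-like cells at 57.4 and 35.3 CPM and every other class. Callus Ncoa2 was highest in plasma cell-like cells at 116 and 222 CPM, T cell-like cells at 129 and 79.9 CPM and mature neutrophil-like cells at 102 and 97.3 CPM, which overlapped, and was lowest in chondrocyte-like cells at 16.5 and 20.9 CPM. In trabecular bone Ncor1 was highest in megakaryocyte or platelet-like cells at 494 and 348 CPM and lowest in erythroblast-like cells at 22.4 and 17.2 CPM. Stromal or skeletal progenitor-like cells had the most Ncoa1 there, 80.3 and 59.7 CPM from 10 and 15 UMIs. Empty droplets held 86.4, 79.5 and 134 CPM of Ncor1 in the callus control, trabecular control and trabecular GC libraries, 11.6, 36.5 and 11.8 CPM of Ncoa1, and 31.6, 21.5 and 25.5 CPM of Ncoa2.

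In the callus Ncoa1 was past 1.5-fold in 3 of 9 measured classes, all lower in GC, and Ncoa2 in 4 of 12, 3 lower and 1 higher, against 15.3% of all pairs of gene and class (6.44% higher, 8.88% lower). These 7 pairs lay in B cell-like, T cell-like, monocyte-like, promyelocyte-like and plasma cell-like cells, and the shares of all genes in these classes follow. Ncoa2 was lower in T cell-like cells at 129 and 79.9 CPM, with a ratio of 0.619 (95% interval 0.468 to 0.818), and in promyelocyte-like cells at 97.2 and 53.7 CPM, with 0.553 (95% interval 0.359 to 0.835). In monocyte-like cells it was 39.5 and 19.3 CPM, with 0.489 (95% interval 0.325 to 0.722), and the log2 ratio went from -0.87 to -0.13 at Leiden resolution 2. Ncoa2 was past 1.5-fold in 13 of 16 alternatives in T cell-like, 12 of 12 in promyelocyte-like and 11 of 13 in monocyte-like cells. Ncoa1 was lower in B cell-like cells (57.4 and 35.3 CPM), with a ratio of 0.616 (95% interval 0.371 to 0.989), in T cell-like cells (39.3 and 22.8 CPM), with 0.582 (95% interval 0.341 to 0.984), and in monocyte-like cells (32.4 and 19.9 CPM), with 0.613 (95% interval 0.404 to 0.915). It was past 1.5-fold in 10 of 15, 11 of 15 and 8 of 12 alternatives in these 3 classes. Of all genes measured, 17.8% in T cell-like, 20.3% in monocyte-like, 22.1% in B cell-like, 22.5% in promyelocyte-like and 35.4% in plasma cell-like cells were past 1.5-fold, and the median gene of the T cell-like, B cell-like and promyelocyte-like classes had a log2 ratio between -0.17 and -0.16. In monocyte-like cells all 11 handling genes were past 1.5-fold and lower in GC, with a summed level of 3865 and 1966 CPM, and their part was not tested. Ncoa2 was higher in callus plasma cell-like cells (116 and 222 CPM), with a ratio of 1.92 (95% interval 1.21 to 3.05). Ncor1 was lower in plasmacytoid dendritic cell-like cells (36 control and 25 GC cells), at 319 and 164 CPM with a ratio of 0.515 (95% interval 0.274 to 0.918), where 26.2% of genes were past 1.5-fold. Besides B cell-like cells, trabecular Ncoa2 was past 1.5-fold and higher in megakaryocyte or platelet-like cells (63.6 and 115 CPM, where 16.7% of genes were past 1.5-fold) and in T cell-like cells (29.7 and 47.3 CPM, with an interval that held 1). Callus osteoblast or osteocyte-like and chondrocyte-like cells had Ncoa2 ratios of 1.43 (95% interval 1.04 to 1.97) and 1.27 (95% interval 1.11 to 1.44). Their levels, 21.96 and 31.4 CPM and 16.5 and 20.9 CPM in control and GC, did not exceed the 31.6 CPM of the callus control droplets.

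Other genes of the pathway were read over all cells of each tissue. Of 15 further chaperones and cochaperones, 15 were measured and 0 were past 1.5-fold in either tissue, with medians of -0.03 on the log2 scale in the callus and -0.03 in trabecular bone, against 3.28% and 3.33% of all genes. The largest were Ppid (21.3 and 33.3 CPM; log2 ratio 0.54) in the callus and the heat shock cognate Hspa8 (707 and 910.2 CPM; 0.36) in trabecular bone. Of 14 further cofactors, 0 of 14 were past 1.5-fold in the callus and 1 of 13 in trabecular bone, the chromatin remodeler Smarca4 (72.2 and 43.5 CPM; -0.67). Of 7 genes that handle the ligand, 5 were measured in each tissue and 1 was past 1.5-fold, the drug exporter Abcb1b in the callus (7.27 and 14.3 CPM; 0.66), while H6pd, which supplies the cofactor of the type 1 enzyme, had log2 ratios of -0.25 in the callus and -0.14 in trabecular bone. Hsd11b2, the type 2 enzyme, had 20 and 15 UMIs in all callus cells and 5 and 7 in all trabecular cells.

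Textbook targets of the receptor bear on the treatment labels. In trabecular bone 4 of 9 measured targets were past 1.5-fold, all higher in GC, against 1.46% of all genes higher and 1.87% lower: the cochaperone gene Fkbp5 (16.1 and 59.9 CPM), the transcription factor gene Zbtb16 (1.68 and 12.02 CPM), the leucine zipper gene Tsc22d3 (75.4 and 165 CPM) and Klf9 (41.8 and 91.4 CPM). In mature neutrophil-like cells, where Nr3c1 was 53.8 and 72.0 CPM, Fkbp5 was 12.2 and 103 CPM and Klf9 10.8 and 119.6 CPM. In T cell-like cells, where Nr3c1 was highest in control, Fkbp5 was 19.8 and 71.0 CPM, and in early erythroid progenitor-like cells, where Nr3c1 was 27.5 and 26.4 CPM, it was 4.13 and 31.8 CPM. Promyelocyte-like cells, with Nr3c1 at 26.2 and 22.2 CPM, had 26.2 and 32.6 CPM of Fkbp5. In the callus 1 of 10 targets was higher past 1.5-fold, the kinase gene Sgk1 (535 and 975 CPM), and 1 was lower, Errfi1 (820.3 and 511 CPM), against 1.77% of all genes higher and 1.51% lower, with Fkbp5 at 19.6 and 31.0 CPM, a log2 ratio of 0.55. In 4 callus immune classes, chosen after their values were seen, more targets were lower than higher past 1.5-fold. There were 3 lower and 0 higher of 7 measured in monocyte-like cells and 3 and 0 of 6 in promyelocyte-like cells. Mature neutrophil-like cells had 3 and 1 of 8 and B cell-like cells 2 and 1 of 7. Of all genes 20.3%, 22.5%, 25.6% and 22.1% were past 1.5-fold in these classes, in either direction. The other callus immune classes are not given, and shares by direction were not read. Errfi1 was lower in each of these 4 classes, and Dusp1, a phosphatase gene, was 2692 and 1133 CPM in mature neutrophil-like cells. Stromal or skeletal progenitor-like cells had 3 higher and 0 lower of 9, where 23.8% of genes were past 1.5-fold. Handling genes summed to a lower level in GC in all of these classes, and their part was not tested. Fkbp5 was 26.3 and 60.3 CPM in callus B cell-like cells. Osteoblast or osteocyte-like cells had 16.7 and 30.6 CPM of Fkbp5 and hypertrophic chondrocyte-like cells 15.6 and 30.5 CPM, where Nr3c1 was 92.2 and 102 CPM and 68.8 and 72.2 CPM.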

How the data were processed

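Single-cell RNA-seq was made from the fracture callus and from trabecular bone of control and GC mice, 1 library per group. Marrow was flushed out, bone fragments were crushed and digested with collagenase, dispase and DNase, and the cells were strained. The authors deposited 1 matrix of raw UMI counts per gene and barcode for each library. The submitters' processing notes name Cell Ranger 5.0.1, Seurat 3.2.0 and mm10, while the matrix headers name version 4 or 4.0.0, and the annotation release is not given in the sources used here. Total counts per library were 95852254 (callus control), 64388215 (callus GC), 41239842 (trabecular control) and 45876714 (trabecular GC). The callus GC matrix listed 7762 barcodes, none under 500 UMIs, so it had been filtered before deposit, whereas the others listed all 6794880 barcodes.

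In the callus control and both trabecular libraries cells were called by a UMI cutoff or by departure from the empty droplets (ranks 45001 to 90000, false discovery rate 0.01). All 7762 barcodes of the callus GC matrix were taken as cells. Cells with under 200 genes or over 10% mitochondrial UMIs were removed, as were the highest doublet scores (0.8% per 1000 cells), which took 404, 428, 123 and 183 cells from the callus control, callus GC, trabecular control and trabecular GC libraries. Control and GC cells of a tissue entered 1 clustering, on 2000 variable genes, 30 principal components and 15 neighbors with Leiden resolution 1, leaving out 66 genes that include the members and the genes of the pathway lists. Clusters were named from 194 markers of 23 classes, and a class needed 15 cells in each library to be compared (18 classes in the callus and 12 in trabecular bone). The wording of the naming rule and the exact computation of the principal components were changed after clusters and values had been seen.

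Levels are CPM over the summed UMIs of a class. A log2 ratio used CPM + 5 and at least 50 UMIs over both libraries, and 1.5-fold was the limit for a count. Ratios in the text are of the CPM themselves, with exact 95% conditional intervals. Shares of cells used cells thinned to 1000 UMIs and exact binomial intervals. Variation between mice is not covered by these intervals. With 1 library per group no test was possible. Sequences came from RefSeq windows of GRCm38.p6, matched for 6 of 9 members by symbol, and gene positions from the GENCODE annotation of GRCm38. The named genes were all 9 members, up to 3 genes with the largest ratio per pathway list and tissue, and the 5 genes most like Nr3c1 and Hsd11b1. Single clusters, class values of pathway genes, Klf9 and the genes given for clusters were chosen after their values were seen. The members, lists and classes were chosen with earlier results of these data known. Tables were handled in Python 3.11.15 with pandas 2.3.3 and numpy 2.4.6, intervals were computed with scipy 1.17.1, neighbors with scikit-learn 1.9.0 and clusters with leidenalg 0.10.2 on igraph 0.11.9, figures were drawn with matplotlib 3.10.9, and the calculations were tested on simulated data. Alternatives changed the added CPM, the UMI minimum, centring, free RNA, cell calling, filters, clustering, marker fold, averaging, depth and denominator.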

Additional observations from a re-analysis of the deposited data

Results flagged for a closer look

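Each result here had opposite directions in the 2 tissues, and the difference between tissues was not tested, since each tissue has 1 library per group. Values are trabecular minus callus log2 ratios of GC over control. For Hsd11b1 over all cells the difference was -0.59, from 0.23 in the callus and -0.36 in trabecular bone, and for Hsd11b1 in granulocyte-monocyte progenitor or promyelocyte-like cells it was -1.58, from 0.91 and -0.67. For Fkbp4 over all cells it was 0.54, from -0.31 and 0.22. For Hsp90ab1 in erythroblast-like cells it was 2.03, from -1.36 and 0.67. In promyelocyte-like cells it was 0.70 for Ptges3, from -0.52 and 0.17, and 0.19 for Hsp90ab1, from -0.10 and 0.08. Callus clusters of that class differed in direction for Hsp90ab1, with a ratio of 1.11 (1.02 to 1.20) in cluster 19 and 0.752 (0.660 to 0.857) in cluster 61. For Nr3c1 in monocyte-like cells it was -0.71, from 0.42 and -0.28. Trabecular clusters of that class ran in both directions, with ratios from 0.514 (0.341 to 0.768) in cluster 40 to 1.43 (0.845 to 2.49) in cluster 10.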

How the results depend on the processing

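No paired analysis was possible because each group is 1 library. Besides the 4 summary results named next, 652 values of 43 results were recomputed under alternatives, of which 582 stayed within the counting interval. Among the rest, 3 values of pairs past 1.5-fold turned and 1 went to 0.0, given below. Ratios over all cells, none of them past 1.5-fold as reported above, kept their sign in 13 of 17 alternatives for trabecular Hsp90ab1, 14 of 17 for Ncoa1 in both tissues and trabecular Nr3c1, 15 of 17 for callus Nr3c1, Hsd11b1 and Ncoa2, 16 of 17 for callus Fkbp4 and Ncor1 and trabecular Ptges3, 15 of 16 for callus Nr3c2 and all 17 for the others.

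The callus count of 14 pairs past 1.5-fold became 9 with 20 CPM added, 3 with at least 200 UMIs, 5 with cells thinned to 1000 UMIs, 7 with a UMI cutoff only, 9 with at least 500 genes per cell and 8 with at least 50 cells per library in a class, an alternative added after seeing the data. The trabecular count of 12 became 5 with at least 200 UMIs, 1 with thinned cells, 5 with a UMI cutoff only, 6 with at most 5% mitochondrial UMIs, 7 with each library clustered alone and 2 with at least 50 cells. Fewer pairs could be measured under several of these, and the other causes were not tested. The share of all pairs of gene and class is given for the main setting only, so these counts have no matching background. In the callus the UMI cutoff applied to the control library only, so that setting compares deep control cells with GC cells of all depths. The Nr3c1 contrast of hematopoietic over osteolineage cells (0.72) became 0.81 without mitochondrial, hemoglobin and ribosomal genes in the denominator, 0.90 as a mean over cells and 0.45 with a UMI cutoff only. The Hsd11b1 contrast of osteolineage over hematopoietic cells (-2.15) became -2.37 with free RNA taken off, -2.43 with that denominator, -1.84 with a UMI cutoff only, -2.46 with at most 5% mitochondrial UMIs and -1.76 without clusters mostly of 1 library, an alternative added after seeing the data. Both contrasts kept their direction under all 14 alternatives.

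Hsp90ab1 in callus plasma cell-like cells turned from -0.80 to 0.30 with at least 500 genes per cell and to 0.30 with each library clustered alone. Fkbp4 in trabecular B cell-like cells turned from -0.92 to 0.35 as a mean over cells, and Hsp90ab1 in trabecular erythroblast-like cells went from 0.67 to 0.0 with free RNA taken off. The cause was not tested. Nr3c1 in trabecular T cell-like cells stayed past 1.5-fold in 16 of 16 alternatives (-0.98 to -0.67), as did Fkbp4 there (1.22 to 1.99 in 16 of 16), Nr3c1 in callus NK-like cells (-0.99 to -0.79 in 15 of 15) and Hsd11b1 in callus promyelocyte-like cells (0.66 to 1.32 in 15 of 15). Hsd11b1 in trabecular promyelocyte-like cells did in 10 of 16 (-0.72 to -0.20) and Fkbp4 in trabecular hematopoietic stem or progenitor cell-like cells in 8 of 15 (0.29 to 0.95). Depth limited Nr3c2, whose counts could not show a difference in any class.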
